A study of Mus musculus with 9 samples.

Results

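The non-clustered protocadherins Pcdh1, Pcdh7, Pcdh8, Pcdh9, Pcdh10, Pcdh17, Pcdh18, and Pcdh19 were described across control and Rbbp4 mutant mouse ESCs. They are 8 of the 25239 gene symbols in the count tables. The family was taken by name around Pcdh18, which was selected on its fold changes between mutants and control as one of the genes that fell most in both mutants. The values of Pcdh18 in those comparisons therefore describe how it was chosen and were not tested.

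RNA-seq was performed on E14 ESCs, an embryonic stem cell line labelled with strain 12910la, that differed in Rbbp4, which encodes a histone-binding subunit of several chromatin complexes. The control was Rbbp4+/+. The line Rbbp4Ins/Ins carries a small in-frame insertion in both alleles of Rbbp4, and the line Rbbp4Ins/Del carries this insertion in one allele and an in-frame deletion in the other. Each mutant line is 1 clone obtained by CRISPR-Cas9, so the genotype and what else sets a clone apart cannot be told apart. All lines were grown with serum and leukemia inhibitory factor, without a treatment or time course. Each line had 3 libraries, and as no source used here says that they came from separate cultures, p-values measure the spread between these libraries, which may be technical.

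The libraries held 15838064 to 21366868 counted reads. Normalized counts are reads scaled to a common library size, and 1 read was worth 0.855 to 1.16 normalized counts, depending on the library. Of all symbols, 14125 had enough reads for a test with edgeR, and a gene was called at a Benjamini-Hochberg adjusted p-value of at most 0.01. Rbbp4 itself had 9932 to 10117 normalized counts in the control, 5486 to 5776 in Rbbp4Ins/Ins, and 10129 to 10602 in Rbbp4Ins/Del, and since the alleles were edited in frame its RNA level does not check the labels. Of 10 ESC markers, none had 3 reads or fewer in all libraries of any line, and their summed level was 86284 to 91227 normalized counts in the control, 115286 to 116950 in Rbbp4Ins/Ins, and 112694 to 116010 in Rbbp4Ins/Del. Of these markers, 8 rose and 2 fell in Rbbp4Ins/Ins, and 7 rose and 1 fell in Rbbp4Ins/Del. Of all tested genes, 29.0% were called higher and 29.4% lower in Rbbp4Ins/Ins, and 30.6% higher and 31.9% lower in Rbbp4Ins/Del. The most abundant of the 10 ESC markers was Dppa5a, with mean normalized counts of 21029 in control, 29068 in Rbbp4Ins/Ins, and 25483 in Rbbp4Ins/Del.

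Protocadherins are the largest group of the cadherin superfamily of membrane proteins, which hold cells together or sort them through extracellular cadherin repeats. The non-clustered members are encoded by single genes scattered over the genome, unlike the clustered protocadherins, whose variable exons stand in tandem. Pcdh1, Pcdh7, and Pcdh9 belong to the δ1 group, and Pcdh8, Pcdh10, Pcdh17, Pcdh18, and Pcdh19 to the δ2 group, which have shorter sets of cadherin repeats and different cytoplasmic tails. They are best known from the embryo and the nervous system, where they act in cell sorting, axon growth, and synapse formation, and several δ2 tails recruit the WAVE complex, which builds branched actin at cell contacts.

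The bases just upstream of the transcription starts of the δ2 genes are shown side by side, because this group holds both Pcdh18 and Pcdh10, which was near 0 reads in every line. The sequences are from RefSeq on GRCm38.p6, the mm10 build, 5′ to 3′ on the strand of the gene, and end at the base before the RefSeq start; 250 bases are given for Pcdh18 and 120 for the others. The capitals mark ATTGG, the inverted CCAAT box, which is the site that the NF-Y factor is known to bind.
Pcdh18, chr3:49757317-49757566, minus strand: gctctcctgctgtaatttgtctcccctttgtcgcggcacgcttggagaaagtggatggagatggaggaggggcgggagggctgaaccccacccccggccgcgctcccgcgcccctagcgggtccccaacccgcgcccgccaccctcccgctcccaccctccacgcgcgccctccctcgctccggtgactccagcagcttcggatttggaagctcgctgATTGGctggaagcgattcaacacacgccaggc
Pcdh8, chr14:79771313-79771432, minus strand: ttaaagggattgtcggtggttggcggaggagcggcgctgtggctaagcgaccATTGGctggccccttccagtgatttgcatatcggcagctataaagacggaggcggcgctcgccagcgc
Pcdh17, chr14:84443443-84443562, plus strand: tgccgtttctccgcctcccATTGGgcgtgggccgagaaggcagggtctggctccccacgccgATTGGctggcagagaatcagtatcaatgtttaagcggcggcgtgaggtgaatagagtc
Pcdh19, chrX:133688994-133689113, minus strand: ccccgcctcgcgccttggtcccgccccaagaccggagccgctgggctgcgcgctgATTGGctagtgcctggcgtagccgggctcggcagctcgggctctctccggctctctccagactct
Pcdh10, chr3:45378278-45378397, plus strand: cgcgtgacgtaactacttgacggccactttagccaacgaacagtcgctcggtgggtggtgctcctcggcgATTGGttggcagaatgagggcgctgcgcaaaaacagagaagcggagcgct
All 5 windows are 5′ flanking sequence of their gene in RefSeq, and GENCODE places the start of Pcdh18 a few bases further upstream, within the end of its window. Both strands were searched for ATTGG, chosen after the sequences had been seen, over 250 bases before to 50 bases after each start. The box was present for all 5 δ2 members and for Pcdh9, and not for Pcdh7, and it occurs in 37.4% of the 32851 RefSeq windows of this length. Its first base lay 32 bases before the start of Pcdh18, 50 before Pcdh10, 58 before Pcdh17, 65 before Pcdh19, 68 before Pcdh8, and 82 before Pcdh9, with a further copy 101 bases before Pcdh17. The longer run ATTGGCTGG, which contains the box, was picked as the longest run shared by Pcdh8, Pcdh17, and Pcdh18. Its presence in these genes was thus set by that choice, and it occurs on either strand in 1.05% of the windows. GGGCGG, the GC box, was found for Pcdh10, Pcdh17, Pcdh18, and Pcdh19 and occurs in 35.7% of the windows. TATAAA, the TATA box, was found only for Pcdh8 among the 7 members with an entry and occurs in 13.6% of the windows. Pcdh9 and Pcdh10, which were at near-zero reads, and Pcdh19, which was lower in both mutants, also hold ATTGG but not the longer run. A match is a description of the letters only.

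Pcdh18, a δ2 member whose tail binds the adaptor Dab1, was the second most abundant of the 8 genes per kilobase in control ESCs. Its reads numbered 94, 64, and 60 in the 3 control libraries, 0, 1, and 0 in Rbbp4Ins/Ins, and 1, 1, and 2 in Rbbp4Ins/Del. In the mutants Pcdh18 was thus at or next to 0 reads in every library, and a library with 0 reads still allows up to 3 at this depth. The normalized count of Pcdh18 was 70.8 ± 8.36 (SD, n = 3) in control, 0.376 ± 0.652 (SD, n = 3) in Rbbp4Ins/Ins, and 1.41 ± 0.783 (SD, n = 3) in Rbbp4Ins/Del.

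With so few mutant reads, the size of the difference rests on the counting error of 1 and 4 reads. Summed over libraries and scaled, Rbbp4Ins/Ins held 0.466% of the control level of Pcdh18, with an exact 95% binomial interval of 0.0117% to 2.62%, which is 215-fold lower with an interval of 38.1 to 8516. Rbbp4Ins/Del held 1.90% of the control level of Pcdh18 (0.512% to 4.92%), which is 52.8-fold lower (20.3 to 195). These intervals cover counting error only. On the fitted log2 scale Pcdh18 stood at -7.28 in Rbbp4Ins/Ins, the lowest of the 14125 tested genes, and at -5.59 in Rbbp4Ins/Del, the 9th lowest, which is how it was chosen. Without Rbbp4Ins/Ins replicate 2, the only library of that line with a read, the fitted value was -9.18, and without replicate 1 it was -6.72. As no read of that line is left without replicate 2, the size of -9.18 is not set by its reads.

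**Figure D1:**
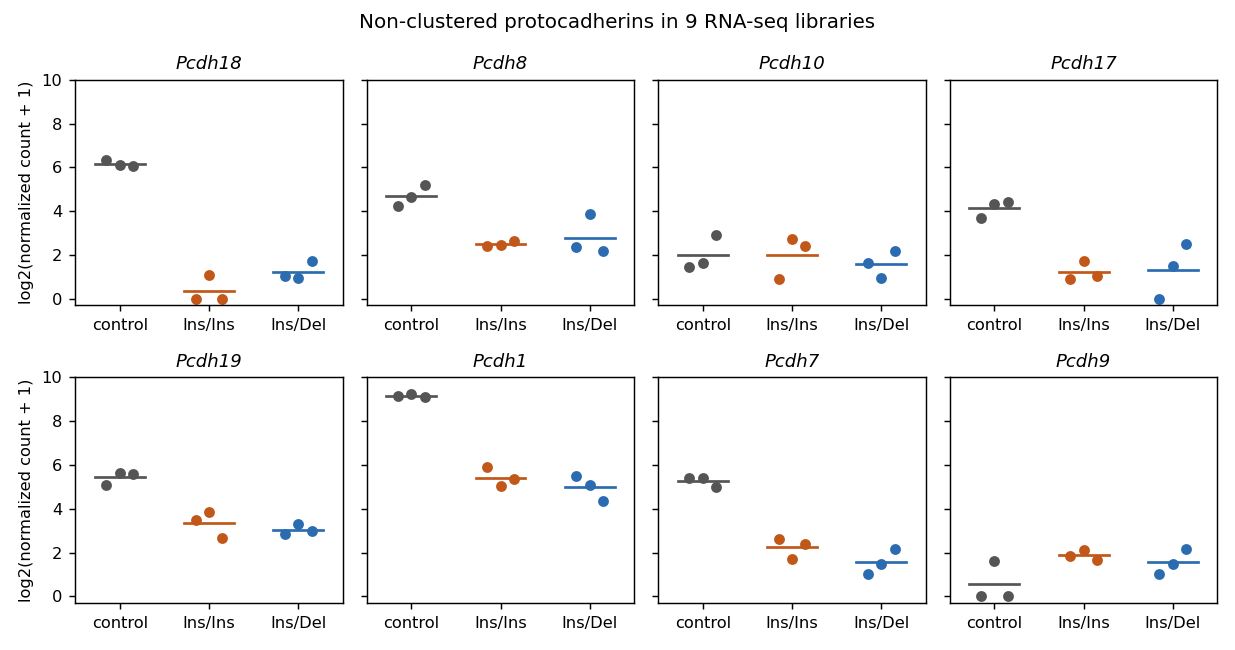
Normalized counts of the 8 protocadherins on a log2 scale after adding 1, 1 panel per gene, with 1 point per library and a line at the mean of the 3 libraries of control, Rbbp4Ins/Ins, and Rbbp4Ins/Del on this scale. Pcdh18 drops from 60 reads or more per control library to 2 reads or fewer per mutant library, Pcdh1 is the most abundant member in each line, and Pcdh9 and Pcdh10 lie near 0 throughout.

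Pcdh19, the δ2 member whose human counterpart is an X-linked epilepsy gene and which works together with N-cadherin, was lower in both mutants. Library by library, its normalized counts were 33.3, 48.2, and 46.6 in control, 10.3, 13.5, and 5.29 in Rbbp4Ins/Ins, and 6.13, 9.02, and 6.94 in Rbbp4Ins/Del. All 6 mutant libraries were lower than the lowest of the control, and the mutant lines overlapped. The log2 fold change of Pcdh19 was -2.11 in Rbbp4Ins/Ins (SE 0.304, adjusted p = 1.2e-07) and -2.48 in Rbbp4Ins/Del (SE 0.323, adjusted p = 1.2e-08) under edgeR's quasi-likelihood test, Benjamini-Hochberg adjusted. In bulk RNA, fewer cells that express such a gene and less RNA per cell cannot be told apart.

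Pcdh8, also called arcadlin, is a δ2 member that takes N-cadherin from the surface through the kinase Taok2 and p38. Its normalized counts were 18.0, 24.1, and 35.7 in the control, 4.28, 4.51, and 5.29 in Rbbp4Ins/Ins, and 4.09, 13.5, and 3.47 in Rbbp4Ins/Del. The mutant libraries lay below the control libraries, with Rbbp4Ins/Del replicate 2 well above the other mutant libraries. On the log2 scale Pcdh8 changed by -2.41 in Rbbp4Ins/Ins (SE 0.433, adjusted p = 6.7e-06) and -1.76 in Rbbp4Ins/Del (SE 0.392, adjusted p = 1.4e-04) in the edgeR test. Without Rbbp4Ins/Del replicate 2 the value in that line was -2.70, and in a test against a 2-fold change Pcdh8 was not called in Rbbp4Ins/Del (edgeR adjusted p = 0.0669).

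Pcdh17, a δ2 member that acts at presynaptic sites and on growing axons, was a low-count gene already in the control. It had 14, 18, and 19 reads in the control libraries, 1, 2, and 1 in Rbbp4Ins/Ins, and 0, 2, and 4 in Rbbp4Ins/Del. No mutant library reached the lowest control library. Its normalized count was 17.1 ± 4.55 (SD, n = 3) in control, 1.39 ± 0.758 (SD, n = 3) in Rbbp4Ins/Ins, and 2.14 ± 2.33 (SD, n = 3) in Rbbp4Ins/Del. For Pcdh17 the log2 fold change was -3.54 in Rbbp4Ins/Ins (SE 0.606, adjusted p = 3.1e-06) and -2.97 in Rbbp4Ins/Del (SE 0.558, adjusted p = 1.2e-05) in the edgeR test. The Rbbp4Ins/Del value of Pcdh17 was -3.97 without replicate 3 and -2.41 without replicate 1 of that line.

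Pcdh10, the δ2 member that binds Nckap1 of the WAVE complex, had 2, 2, and 6 reads in the control libraries, 1, 5, and 4 in Rbbp4Ins/Ins, and 2, 1, and 3 in Rbbp4Ins/Del. It was too low for the test, and the lines overlapped. The scaled read sum of Pcdh10 was 102% of the control in Rbbp4Ins/Ins (exact 95% interval 37.9% to 272%) and 62.0% in Rbbp4Ins/Del (18.5% to 188%). Both intervals include no difference, and they cover counting error only.

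Among the δ1 members, Pcdh1, an adhesion protein best known from epithelia, carried most of the family's reads. Library by library, its normalized counts were 570, 613, and 546 in control, 58.2, 31.6, and 40.2 in Rbbp4Ins/Ins, and 44.0, 33.4, and 19.7 in Rbbp4Ins/Del. The highest mutant library was thus far below the lowest control library. Pcdh1 had a log2 fold change of -3.69 in Rbbp4Ins/Ins (SE 0.128, adjusted p = 2.4e-25) and -4.13 in Rbbp4Ins/Del (SE 0.137, adjusted p = 4.0e-26) in the edgeR test. By scaled read sums Pcdh1 was 12.9-fold lower in Rbbp4Ins/Ins (exact 95% interval 10.8 to 15.5) and 17.5-fold lower in Rbbp4Ins/Del (14.3 to 21.7), the narrowest such intervals in the family.

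Pcdh7, the δ1 member whose tail binds protein phosphatase 1 and Set, gave normalized counts of 41.0, 40.9, and 31.4 in control, 5.13, 2.26, and 4.23 in Rbbp4Ins/Ins, and 1.02, 1.80, and 3.47 in Rbbp4Ins/Del. The mutant libraries of Pcdh7 held 1 to 6 reads each and all lay below the control. Its log2 fold change was -3.21 in Rbbp4Ins/Ins (SE 0.369, adjusted p = 8.1e-10) and -4.14 in Rbbp4Ins/Del (SE 0.426, adjusted p = 4.6e-11) in the edgeR test.

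Pcdh9, the third δ1 member, which is known from neurons, had 0, 2, and 0 reads in the control libraries, 3, 3, and 2 in Rbbp4Ins/Ins, and 1, 2, and 3 in Rbbp4Ins/Del. It was too low for the test, and it was the only member with more reads in both mutants than in the control, 8 and 6 against 2 in sum. The scaled sum of Pcdh9 was 406% of the control in Rbbp4Ins/Ins with an exact 95% interval of 81.1% to 3927%, and 310% in Rbbp4Ins/Del with an interval of 55.4% to 3139%, so both intervals include no difference. In a fit of all genes with at least 1 read, Pcdh9 had a log2 fold change of 1.84 in Rbbp4Ins/Ins (edgeR adjusted p = 0.211) and of 1.47 in Rbbp4Ins/Del (edgeR adjusted p = 0.356).

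Of the 7 members other than Pcdh18, 5 passed the filter on low counts, and all 5 of these fell in Rbbp4Ins/Ins, where 29.4% of all tested genes were called lower. The same 5 genes, Pcdh1, Pcdh7, Pcdh8, Pcdh17, and Pcdh19, fell in Rbbp4Ins/Del, where 31.9% of tested genes were called lower. Each of the falls was over 2-fold, which was so for 8.96% of tested genes in Rbbp4Ins/Ins and 10.2% in Rbbp4Ins/Del. The comparisons share the control libraries. A gene passes the filter with more than 0.575 CPM (reads scaled to library size) in 3 libraries or more. Pcdh7, Pcdh17, and Pcdh18 exceeded that level in the 3 control libraries alone. Pcdh8 and Pcdh19 exceeded it in the 3 control libraries and in 1 mutant library each. They too thus passed only because the control was high, whereas Pcdh1 exceeded the level in all 9 libraries. For the genes that entered the test only because the control was high, a fall was the one outcome that the filter favoured, and the count is not support for a family-wide change.

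**Figure D2:**
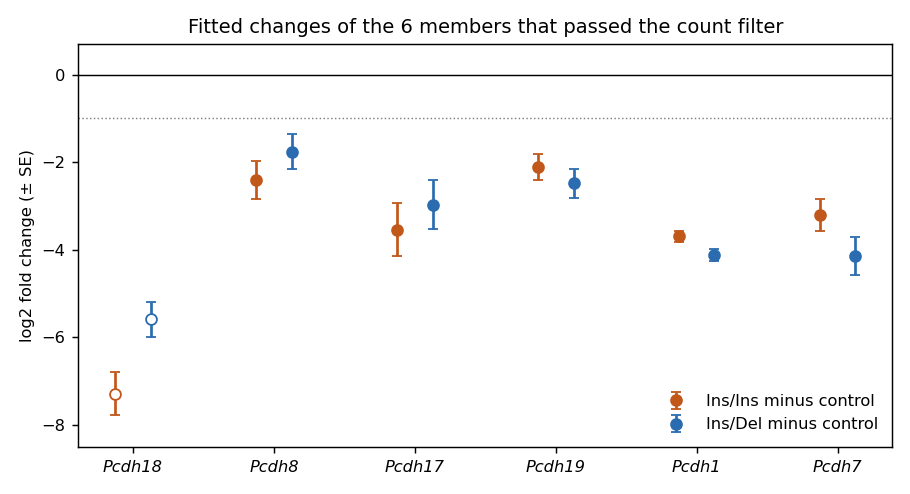
Fitted log2 fold changes with standard errors for the 6 protocadherins with enough reads, Rbbp4Ins/Ins minus control and Rbbp4Ins/Del minus control, with a dotted line at a 2-fold fall. Pcdh18 is drawn with open symbols because it was chosen by these values and was not tested, and the other 5 lie between -1.76 for Pcdh8 and -4.14 for Pcdh7.

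The mutant lines were compared with each other for the 6 members with enough reads, a comparison that played no part in choosing Pcdh18. With edgeR, 0 of the 6 were called, against 10.8% of all tested genes, and 0 had an unadjusted p-value under 0.05. DESeq2 also called 0, with an adjusted p-value for 3 members only. The log2 difference of Pcdh1, Rbbp4Ins/Del minus Rbbp4Ins/Ins, was -0.44 with a 95% interval of -0.88 to 0.0042 (edgeR adjusted p = 0.183). Pcdh7 differed by -0.93 (-2.31 to 0.45, edgeR adjusted p = 0.393) and Pcdh19 by -0.37 (-1.23 to 0.49, edgeR adjusted p = 0.619). In these 3 genes the lower mean was in Rbbp4Ins/Del. For Pcdh8 the difference was 0.66 (-0.45 to 1.76, edgeR adjusted p = 0.467), for Pcdh17 it was 0.57 (-1.34 to 2.47, edgeR adjusted p = 0.747), and for Pcdh18 1.69 (-0.73 to 4.12, edgeR adjusted p = 0.376). A 2-fold difference between the mutant lines lies outside the interval of Pcdh1 and inside those of Pcdh7, Pcdh8, Pcdh17, Pcdh18, and Pcdh19, so for these 5 genes likeness of the lines was not shown. Without Rbbp4Ins/Del replicate 2, Pcdh8 turned to -0.29, and without replicate 3, Pcdh17 turned to -0.43. The difference of Pcdh18 was 3.59 without Rbbp4Ins/Ins replicate 2 and 1.14 without replicate 1 of that line. Without replicate 2 that line had no read of Pcdh18, so the size of 3.59 is not set by its reads.

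The order of the family was read from normalized counts per kilobase of exonic length. In the control it was Pcdh1 with 65.5 ± 3.86, Pcdh18 with 13.2 ± 1.56, Pcdh8 with 5.71 ± 1.99, Pcdh19 with 4.08 ± 0.778, Pcdh7 with 3.56 ± 0.520, Pcdh17 with 1.32 ± 0.350, Pcdh10 with 0.216 ± 0.167, and Pcdh9 with 0.103 ± 0.178 (SD, n = 3). Neighbours whose libraries overlapped in this order were Pcdh8 and Pcdh19, Pcdh19 and Pcdh7, and Pcdh10 and Pcdh9. In Rbbp4Ins/Ins the level per kilobase of Pcdh1 was 4.92 ± 1.54, of Pcdh8 1.03 ± 0.116, and of Pcdh19 0.927 ± 0.397, and each of the other 5 was at 0.396 or less, with Pcdh18 last at 0.0701 ± 0.121 (SD, n = 3). In Rbbp4Ins/Del the level per kilobase was 3.68 ± 1.38 for Pcdh1, 1.55 ± 1.24 for Pcdh8, 0.704 ± 0.142 for Pcdh19, and 0.309 or less for the others, with Pcdh18 second among them at 0.263 ± 0.146 (SD, n = 3). Among these others, every pair of neighbours overlapped in both mutant lines, as did Pcdh8 and Pcdh19, and in Rbbp4Ins/Del also Pcdh1 and Pcdh8. By its mean Pcdh1 stayed first in each line, and Pcdh18 went from second place into the group at the lower end.

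Summed over the 8 members, the normalized counts were 751 to 816 in the control libraries, 62.4 to 82.1 in Rbbp4Ins/Ins, and 47.4 to 63.2 in Rbbp4Ins/Del. Pcdh1 alone gave 72.6% to 75.4% of the sum in the control libraries, 49.1% to 70.8% in Rbbp4Ins/Ins, and 41.5% to 74.1% in Rbbp4Ins/Del. Annotated transcripts on the opposite strand overlap 21.1% of the exonic length of Pcdh7, 9.61% of Pcdh8, 0.969% of Pcdh10, and 0.545% of Pcdh19. The strand setting of the counting is not given in the sources used here. These partners held 0 reads in most libraries and 2 at most, which does not tell whether reads in the overlaps were counted for the members.

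The other non-clustered protocadherins Pcdh11x, Pcdh12, Pcdh15, and Pcdh20 were near 0 and did not enter the test. Pcdh11x, which is X-linked, had 2, 2, and 8 reads in the control libraries, 1, 2, and 1 in Rbbp4Ins/Ins, and 0, 0, and 1 in Rbbp4Ins/Del. Pcdh15, a part of the tip link of hair cells, had 3, 5, and 3 reads in the control libraries, 0, 1, and 0 in Rbbp4Ins/Ins, and 1, 0, and 0 in Rbbp4Ins/Del. Both were thus lower in sum in the mutants. In the fit of all genes with at least 1 read, Pcdh15 had log2 fold changes of -3.02 in Rbbp4Ins/Ins (edgeR adjusted p = 0.04) and -3.01 in Rbbp4Ins/Del (edgeR adjusted p = 0.0388), neither past the 0.01 limit. Pcdh12, known from endothelium, had 5 reads in 1 control library and 1 at most in any other, and Pcdh20 had 1 read over all 9 libraries.

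The members are spread over 5 chromosomes, and the tested genes around each were compared with it. Pcdh18 lies on chromosome 3 from 49743296 to 49757325 of mm10, Pcdh10 on the same chromosome 4.31 Mb away, Pcdh1 on chromosome 18 from 38185914 to 38212053, Pcdh7 on chromosome 5 from 57717967 to 58133230, and Pcdh19 on chromosome X from 133582860 to 133688987. The 10 other tested genes within 2 Mb of Pcdh18 had a median log2 fold change of 0.21 in Rbbp4Ins/Ins and 0.27 in Rbbp4Ins/Del, against medians of 0.0038 and -0.011 over all tested genes. Of these neighbours, 3 were called lower in each mutant, with 4 called higher in Rbbp4Ins/Ins and 5 in Rbbp4Ins/Del. Among all tested genes, 29.4% and 31.9% were called lower and 29.0% and 30.6% higher. Within 5 Mb, 10 of 22 were called lower in Rbbp4Ins/Ins and 9 in Rbbp4Ins/Del, with medians of -0.0015 and -0.088. The neighbours called over 2-fold in both mutants were Maml3, a Notch coactivator, at -2.79 and -2.48, and 1700018B24Rik at 4.33 and 5.10. Around Pcdh1, 54 genes had medians of -0.11 and -0.097, and Arap3, 187 kb from it, fell, with log2 fold changes of -2.43 and -3.14, while Slc4a9 (2.79 and 3.31) and Nrg2 (2.13 and 2.41) rose. Around Pcdh19, 21 genes had medians of 0.012 and 0.0019, and Armcx3 fell (-2.77 and -3.09) while Btk and Pramel3 rose from under 1 normalized count in the control. No tested gene lay within 2 Mb of Pcdh7, Pcdh9, or Pcdh17.

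Pcdh8 (79766775 to 79771312), Pcdh17 (84443563 to 84539002), and Pcdh9 (93013410 to 93890679) lie on chromosome 14, where many genes were lower in both mutants. All 12 other tested genes within 2 Mb of Pcdh8 were called lower in Rbbp4Ins/Ins and 11 of 12 in Rbbp4Ins/Del, with median log2 fold changes of -0.86 and -0.85. The shares of all tested genes called lower were 29.4% and 31.9%. Of the neighbours called over 2-fold in both mutants, the largest changes were those of Tnfsf11, the RANK ligand, at -2.18 and -1.89, Dgkh, a diacylglycerol kinase, at -1.27 and -1.32, and Naa16 at -1.07 and -1.28. From 5 Mb before Pcdh8 to 5 Mb after Pcdh9, 25 of 32 other genes were called lower in Rbbp4Ins/Ins and 24 in Rbbp4Ins/Del, with medians of -0.74 and -0.67. Relative to these medians, Pcdh8 stood at -1.68 in Rbbp4Ins/Ins and -1.09 in Rbbp4Ins/Del, and Pcdh17 at -2.80 and -2.30. Both were thus further down than the median of the genes around them. As both passed the count filter only because the control was high, which favoured large falls, this contrast is partly set by the filter.

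In bins of 5 Mb drawn after the data were seen, the stretch from 45 to 80 Mb of chromosome 14 held 7 bins of 30 to 60 genes with medians between -1.25 and -0.72 in Rbbp4Ins/Ins and between -1.30 and -0.67 in Rbbp4Ins/Del. Before it, 8 bins from 5 to 45 Mb had medians between -0.43 and 0.90 in Rbbp4Ins/Ins, the highest from a bin of 4 genes, and between -0.42 and 0.95 in Rbbp4Ins/Del. Beyond 95 Mb, 5 bins of 4 genes or more had medians between -0.26 and 0.059 in Rbbp4Ins/Ins and between -0.29 and 0.14 in Rbbp4Ins/Del. Between Pcdh8 and 95 Mb few genes were tested, and these were low as well. All 6 other tested genes within 5 Mb of Pcdh17 were called lower in Rbbp4Ins/Ins and 5 of 6 in Rbbp4Ins/Del, with medians of -0.79 and -0.84. Behind Pcdh17, the 2 genes Diaph3 and Tdrd3, named after their values were seen, stood at -0.99 and -1.72 in Rbbp4Ins/Ins and at -0.89 and -1.79 in Rbbp4Ins/Del. The rest of the 6 genes lie before Pcdh8 and were already counted among its neighbours. Pcdh8 and Pcdh17 thus both lie among genes with lower counts. Fewer copies of this stretch and less RNA per copy cannot be told apart from RNA counts, and the part of the stretch in the falls of Pcdh8 and Pcdh17 was not tested. Pcdh18, Pcdh1, Pcdh7, and Pcdh19 lie on other chromosomes.

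**Figure D3:**
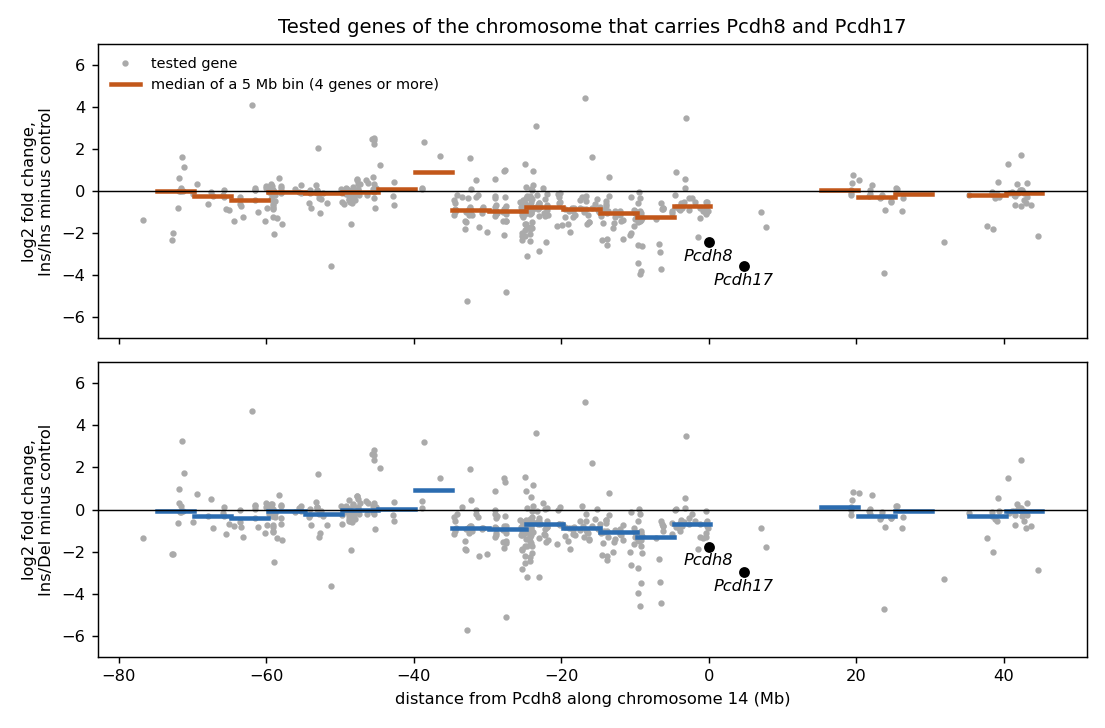
Log2 fold changes of the tested genes on chromosome 14 against their distance from Pcdh8 in Mb, Rbbp4Ins/Ins minus control above and Rbbp4Ins/Del minus control below, with grey points for genes and bars for the medians of 5 Mb bins with 4 genes or more. The bars lie between -1.30 and -0.67 over about 35 Mb up to Pcdh8, and Pcdh8 and Pcdh17, in black, lie below them.

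Other cadherins were counted from lists written with earlier results of these data known. Among the atypical cadherins, the Fat, Dachsous, and Celsr proteins of planar polarity and growth control, 5 of 8 tested genes fell in each mutant and 1 rose, with median log2 fold changes of -1.13 in Rbbp4Ins/Ins and -1.42 in Rbbp4Ins/Del. Over all tested genes, 29.4% and 31.9% were called lower and 29.0% and 30.6% higher, with medians of 0.0038 and -0.011. Dchs1, the Dachsous ligand of Fat4, went from 60.2 ± 7.02 normalized counts (SD, n = 3) in control to 7.36 ± 0.954 in Rbbp4Ins/Ins and 5.82 ± 0.981 in Rbbp4Ins/Del, with log2 fold changes of -3.01 and -3.35. Fat3 fell, at -1.72 and -2.07, and so did Celsr3, which guides axon tracts, at -1.59 and -2.53 on the log2 scale. Celsr1 was the gene that rose, by 0.53 and 0.45.

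Of 16 tested classical and other type cadherins with their catenins, 11 fell and 2 rose in Rbbp4Ins/Ins, and 10 fell and 3 rose in Rbbp4Ins/Del, with medians of -0.67 and -0.66. Cdh24, named for its position, is among those that fell, with log2 fold changes of -0.97 and -1.03. It lies at 54.6 Mb of chromosome 14, within the stretch of genes with lower counts. N-cadherin (Cdh2), the partner of Pcdh8 and Pcdh19 at the membrane, had 301 ± 19.0 normalized counts (SD, n = 3) in control, 18.7 ± 1.20 in Rbbp4Ins/Ins, and 18.5 ± 1.25 in Rbbp4Ins/Del. Cdh2 fell by 4.01 on the log2 scale in each mutant (edgeR adjusted p = 1.7e-24 and 1.5e-24), which is of the size of the fall of Pcdh1. Cdh9 and Cdh10, type II cadherins of neurons, fell as well, Cdh9 from 211 mean normalized counts in control to 48.6 in Rbbp4Ins/Ins and 46.3 in Rbbp4Ins/Del, and Cdh10 from 77.5 to 8.44 and 9.67. Cdh4, the retinal cadherin, went the other way, with log2 fold changes of 2.30 and 2.65. E-cadherin (Cdh1), the main cadherin of ESCs, was chosen after its values were seen and had 13937 ± 104 normalized counts in the control, 11758 ± 216 in Rbbp4Ins/Ins, and 13839 ± 410 in Rbbp4Ins/Del (SD, n = 3).

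Each tested intracellular partner had a smaller fold change in size than any of the 5 tested protocadherins other than Pcdh18. All of these protocadherins except Pcdh1 passed the count filter only through the control libraries, which favoured large falls. The contrast in size is therefore partly set by the filter. Of 9 genes of the WAVE complex, 6 fell and 2 rose in each mutant, none by over 2-fold, with median log2 fold changes of -0.25 and -0.26. Of 10 other genes whose products bind or act with protocadherin tails, such as Taok2, Mapk14, Ppp1ca, and Set, 4 rose and 3 fell in Rbbp4Ins/Ins and 5 rose and 3 fell in Rbbp4Ins/Del, with medians of 0.077 and 0.13. The shares of all tested genes were 29.0% higher and 29.4% lower in Rbbp4Ins/Ins and 30.6% higher and 31.9% lower in Rbbp4Ins/Del. Dab1, the adaptor known to bind the tail of Pcdh18, had 425 ± 26.2 normalized counts (SD, n = 3) in control, 185 ± 14.1 in Rbbp4Ins/Ins, and 276 ± 11.4 in Rbbp4Ins/Del, and was singled out after its values were seen. Dab1 fell, with log2 fold changes of -1.19 and -0.62, and the mutants differed from each other (edgeR adjusted p = 7.7e-06).

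**Figure D4:**
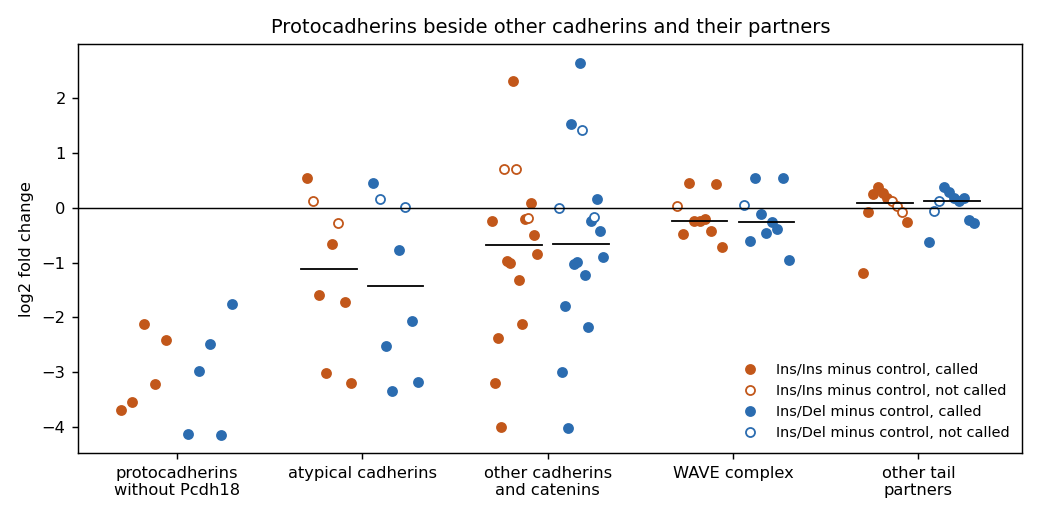
Log2 fold changes, Rbbp4Ins/Ins minus control and Rbbp4Ins/Del minus control, for the 5 tested protocadherins other than Pcdh18 and for each tested gene of 4 further lists, with filled points for called genes, open points for genes not called, and a bar at the median of each further list. In the further lists, cadherins spread from -4.01 for Cdh2 to 2.65 for Cdh4, whereas the WAVE complex stays within 2-fold.

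The 5 tested genes whose pattern over the 9 libraries was nearest to that of Pcdh18 were Cxcl12, Col1a2, Tgfb2, Cav1, and Ccn4. Nearness was the root mean square difference of log2(normalized count + 1) after centring each gene, and it was 0.472, 0.494, 0.560, 0.587, and 0.593 in that order. Cxcl12, a chemokine, had 218 to 269 normalized counts in the control, 5.99 to 6.77 in Rbbp4Ins/Ins, and 5.11 to 12.7 in Rbbp4Ins/Del. Col1a2, a collagen I chain, had 211 to 271 normalized counts in the control, 5.13 to 7.40 in Rbbp4Ins/Ins, and 6.32 to 12.3 in Rbbp4Ins/Del. Tgfb2 encodes a growth factor, Cav1 the coat protein of caveolae, and Ccn4 a matricellular protein. Among the protocadherins, Pcdh1 was nearest with 1.08, followed by Pcdh7 with 1.25, Pcdh17 with 1.33, Pcdh19 with 1.60, and Pcdh8 with 1.74, so each was further from Pcdh18 than these 5 genes. With a near-complete loss in 6 libraries, this measure mostly reflects the size of the difference from control.

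**Figure D5:**
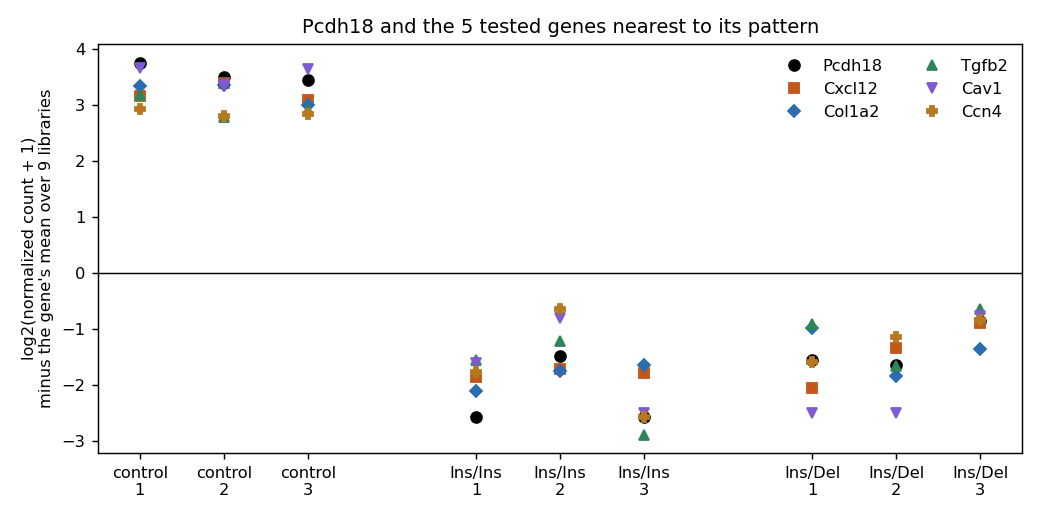
Log2(normalized count + 1) minus the gene's mean over the 9 libraries for Pcdh18, in black, and the 5 tested genes nearest to it, by library. All 6 genes lie above 2.5 in the control libraries and below 0 in the mutant libraries.

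Markers of other cell types were measured beside these falls, since E14 ESC cultures can hold differentiated cells. Their counts stand against 29.4% of all tested genes called lower and 29.0% higher in Rbbp4Ins/Ins, and 31.9% lower and 30.6% higher in Rbbp4Ins/Del. Of 12 fibroblast or feeder cell markers, 7 were tested, and 5 fell and 1 rose in Rbbp4Ins/Ins while 5 fell and 2 rose in Rbbp4Ins/Del, with a summed level of 1259 to 1353 normalized counts in the control, 576 to 585 in Rbbp4Ins/Ins, and 729 to 774 in Rbbp4Ins/Del. Col5a1 was the most abundant of these markers, with 589 ± 3.16 normalized counts (SD, n = 3) in control, 265 ± 15.9 in Rbbp4Ins/Ins, and 342 ± 25.4 in Rbbp4Ins/Del. Relative to control on the log2 scale, Col1a1 stood at -4.04 and -3.55, Col3a1 at -5.31 and -4.78, Pdgfrb at -1.28 and -1.23, and Thy1 at 2.43 and 2.77. In the control, Lum had 3 reads or fewer in every library, and in both mutants so did Col3a1, Lum, Postn, Twist2, and Prrx1, with Dcn also in Rbbp4Ins/Ins. Col1a2, one of the genes nearest to Pcdh18, is also on this list. The summed level of these markers was thus lower in both mutants, as was Pcdh18, and their part in its fall was not tested.

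Of 10 neural progenitor markers, 5 were tested, and 2 fell and 1 rose in each mutant, against 29.4% and 31.9% of all tested genes called lower and 29.0% and 30.6% higher, with sums of 3035 to 3083 normalized counts in the control, 1358 to 1485 in Rbbp4Ins/Ins, and 1669 to 1744 in Rbbp4Ins/Del. Nes, the most abundant, had log2 fold changes of -2.93 and -3.08, Pax6 of -3.19 and -4.50, and Tubb3 of 1.04 and 1.46. Olig2 and Fabp7 had 3 reads or fewer in every library of each line. Of 10 mesoderm markers, 6 were tested, 2 fell and 1 rose in Rbbp4Ins/Ins, and 3 fell and 1 rose in Rbbp4Ins/Del, with sums of 1070 to 1336, 840 to 953, and 857 to 875. Tcf15 was the most abundant, at 907 ± 131 normalized counts (SD, n = 3) in control, 511 ± 44.0 in Rbbp4Ins/Ins, and 552 ± 22.6 in Rbbp4Ins/Del, and T (brachyury) fell from 44.6 normalized counts, with log2 fold changes of -4.17 and -6.58. Of 10 endoderm markers, 8 were tested, 3 fell and 2 rose in Rbbp4Ins/Ins, and 2 fell and 6 rose in Rbbp4Ins/Del, with sums of 2785 to 3062, 2627 to 2806, and 3767 to 3874. Lama1 was the most abundant of these, Gata4 and Dab2 fell over 2-fold in both mutants, and Sox7 rose over 2-fold in both. Gata4 and Sox7 both lie in the stretch of chromosome 14 where many genes had lower counts. The part of these cells in the levels of Pcdh1, Pcdh7, Pcdh8, Pcdh17, Pcdh18, and Pcdh19 was not tested.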

How the data were processed

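RNA-seq libraries of control, Rbbp4Ins/Ins, and Rbbp4Ins/Del ESCs, 3 each, were analysed. Per the paper's methods and the submitters' processing notes, the authors prepared mRNA libraries with a Kapa kit, aligned reads to mm10 with STAR 2.7.3, and counted them per gene with HTSeq; what was deposited are these raw whole-number counts. The HTSeq version, the annotation, and the strand setting are not given in the sources used here. The authors compared lines with DESeq2 1.22.2 and a limit of 0.01 on the adjusted p-value. Here, TMM factors came from edgeR 4.0.16 (R 4.3.3), which filtered genes with filterByExpr, and fitted glmQLFit to all 9 libraries with 3 groups, and p-values from glmQLFTest were adjusted by Benjamini-Hochberg over 14125 genes. The scripts were tested on simulated data. Library totals were 15838064 to 21366868 counts. Levels per kilobase and positions use GENCODE M21 (GRCm38), and promoters RefSeq. Tables and figures used Python 3.11.15, pandas 2.3.3, scipy 1.17.1, and matplotlib 3.10.9.

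The members, gene lists, and tests were chosen with earlier results of these data known. Named genes were all members and 4 further non-clustered protocadherins, list genes called over 2-fold in both mutants in the same direction with a mean normalized count above 20 (at most 6 a list), the most abundant gene of each marker list with any marker called over 2-fold in both mutants, the 5 genes nearest to Pcdh18, up to 3 neighbours per member within 2 Mb called over 2-fold in both mutants, and Rbbp4. Ratios of scaled read sums with exact 95% binomial intervals replaced a bound at 3 reads. Alternatives were DESeq2 1.42.0, its size factors in edgeR, total-count scaling, no filter, fits of 2 groups, a replicate block, each library left out, glmTreat against 2-fold, a 0.05 limit, and 5 Mb windows.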

Additional observations from a re-analysis of the deposited data

How the results depend on the processing

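The counts of called members, 5 in Rbbp4Ins/Ins, 5 in Rbbp4Ins/Del, and 0 between the mutants, held under 17 alternatives each, except that the test against a 2-fold change called 4 in Rbbp4Ins/Del, where Pcdh8 had an edgeR adjusted p of 0.0669. In the main fit, 29.4% and 31.9% of all tested genes were called lower, and 10.8% were called between the mutants. For Pcdh7, Pcdh8, Pcdh17, and Pcdh19 the filter favoured falls, so the stable counts are not support for a family-wide change. Leaving out any 1 library changed none of these counts. Between the mutants, Pcdh8 turned to -0.29 without Rbbp4Ins/Del replicate 2 (edgeR adjusted p = 0.848) and Pcdh17 to -0.43 without replicate 3 (edgeR adjusted p = 0.876). Over all left-out libraries these differences ranged from -0.29 to 0.94 for Pcdh8 and from -0.43 to 1.12 for Pcdh17. With DESeq2 size factors, 1 cadherin or catenin rose in Rbbp4Ins/Ins in place of 2. Of all tested genes, 8252, 8829, and 1527 were called in the 3 comparisons, 1236, 1563, and 0 against a 2-fold change, and 2682 between the mutants at an adjusted p of at most 0.05. In windows of 5 Mb the medians in Rbbp4Ins/Ins and Rbbp4Ins/Del were -0.0015 and -0.088 around Pcdh18, -0.24 and -0.17 around Pcdh19, and -0.72 and -0.66 around Pcdh8. Replicate numbers did not pair the libraries, as correlations of same-numbered deviations were -0.024 to 0.060, and with a replicate block 5, 5, and 0 members were called. DESeq2 gave an adjusted p for 3 members between the mutants, and the fit of 2 groups kept 1 there, so those zeros rest on fewer genes. Pcdh9 and Pcdh10 in every line, Pcdh7, Pcdh17, and Pcdh18 in the mutants, and Pcdh8 in Rbbp4Ins/Ins had 6 reads or fewer per library. This limits the precision of their levels. In Rbbp4Ins/Del, Pcdh8 had 4, 15, and 3 reads.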
